A study of Mus musculus with 27 samples.

Results

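Hyaluronan is a long unbranched sugar polymer of the extracellular matrix. The synthases Has1, Has2 and Has3 sit in the plasma membrane and extrude it from UDP-sugars, the hyaluronidases Hyal1 and Hyal2 cut it, and Cemip2 is a cell-surface protein for which hyaluronan-cutting activity has been described. Cd44 is its widespread cell-surface receptor, Hmmr (RHAMM) is a hyaluronan-binding protein that also works at the mitotic spindle, and Stab2 and Lyve1 are receptors of sinusoidal and lymphatic endothelium. In the liver, sinusoidal endothelial cells take hyaluronan up from the blood through Stab2. These 10 genes, chosen by name, are described here out of the 55414 genes counted in the livers of 27 mice.

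The animals were female Balb/c mice, 8 weeks old, and RNA came from whole-liver homogenate. The control group (n = 4) received olive oil by the intraperitoneal route and PBS in the tail vein. The 4MU group (n = 3) received olive oil and 4-methylumbelliferone, an inhibitor of hyaluronan synthesis, by daily gavage at 600 mg/kg. The siLuc-LNP and siHAS2-LNP groups (n = 3 each) received olive oil and lipid nanoparticles in the tail vein, loaded with small interfering RNA against luciferase, which mice do not have, or against Has2, with 1 mg/kg at the start and 0.5 mg/kg at each later dose. The CCl4 group (n = 2) received carbon tetrachloride, a hepatotoxin that causes fibrosis, into the peritoneum for 2 weeks. It was combined with each agent in the groups CCl4 + siHAS2-LNP, CCl4 + siLuc-LNP and CCl4 + 4MU (n = 4 each). The study's methods state a vehicle gavage for control mice, while the labels name neither that gavage in the control group nor a tail vein injection in the CCl4 group. Whether route and agent differ together in comparisons with these groups is therefore not settled by the labels. The number of libraries is the number of mice, and the p-values measure the spread between these livers.

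Library totals ranged from 7044386 to 29425937 counts, so that 3 counts, taken here as the floor of detection, were worth 0.102 to 0.426 CPM, the unit of counts scaled to a common library total. The shallowest library was CCl4 + siHAS2-LNP mouse 4. CCl4 mouse 2 stood apart in its scaling factor (1.32), and CCl4 + siLuc-LNP mouse 4 correlated least with its group (median Spearman rho 0.959). The sum of 8 hepatocyte markers was between 77820 and 204300 CPM in the 27 livers. In the averaged effect of CCl4 described further on, 4 of 7 Kupffer cell and 3 of 7 lymphocyte markers fell, and all 5 cholangiocyte markers rose. There 26.2% of all tested genes rose and 25.5% fell. Of the 8 hepatocyte markers 1 rose and 3 fell, Alb (log2 -0.31), Serpina1a (-0.40) and Ttr (-0.39), with 1 each way without CCl4 mouse 2.

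Has2, the synthase targeted by the study, was the starting point. The strands of the siRNA used in mice are shown, as the study writes them with modified pyrimidines in lower case, because they define which stretch of Has2 was targeted.
sense: uuAcGGAAAuGuuuGcAA
antisense: AUUGcAAAcAUUUCCGuA
site in Has2: tTACGGAAATGTTTGCAAT
The site lies at chr15:56545288-56545306 (GRCm39, minus strand), in the coding part of exon 2 of 4 of Has2, and begins in codon 99. Capitals in the site mark the 18 bases with which the antisense strand pairs, which start 1 base after the stretch that matches the sense strand. No transcript of the other 9 members held these 18 bases.

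Has2 was not detected in 25 of the 27 livers. CCl4 mouse 2 had 2 counts and CCl4 + siLuc-LNP mouse 4 had 1. Both livers had been given CCl4 and neither had been given Has2 siRNA or 4MU. Over the 14 CCl4 livers this was 3 counts in 305343137, or 0.00983 CPM (95% exact Poisson interval 0.00203 to 0.0287, covering counting error only). The 13 livers without CCl4 had 0 counts in 284681717, which allows up to 0.0130 CPM by the same interval. In the 4 CCl4 + siHAS2-LNP livers, 0 counts of 72737403 allowed 0.0507 CPM, and in the 4 CCl4 + siLuc-LNP livers 1 count gave 0.0108 CPM (0.000272 to 0.0600). These intervals overlap, so a knockdown of Has2 mRNA was not detectable at this depth. The lncRNA gene Has2os, which overlaps Has2 on the opposite strand, had 2 counts in all.

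Has1 was counted 67 times in 27 livers and was at 0 in 9 of them. The 4MU livers had 1, 2 and 17 counts, and the CCl4 livers 1 and 11. No other liver exceeded 8. The 8 counts were those of CCl4 + siHAS2-LNP mouse 4, the shallowest library. By level this liver was the highest of all 27, at 1.07 CPM against 0.861 for the 17 counts and 0.415 for the 11. The high values were therefore 1 liver each rather than a group, and over 3 counts were reached in 4 libraries. Pooled, Has1 was at 0.118 CPM in livers with CCl4 (0.0826 to 0.163) and 0.109 CPM in those without (0.0740 to 0.155).

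Has3 was the synthase seen in most livers, with 103 counts in all and at least 1 count in 26 livers. Its counts were 5, 2, 2 and 5 in control, 10, 6 and 3 in 4MU, 5, 2 and 2 in siLuc-LNP, and 4, 1 and 2 in siHAS2-LNP. They were 0 and 1 in CCl4, 4, 5, 12 and 8 in CCl4 + 4MU, 1, 3, 5 and 1 in CCl4 + siLuc-LNP, and 3, 4, 6 and 1 in CCl4 + siHAS2-LNP. Has3 was thus lowest in the CCl4 group and above 3 counts in all 4 CCl4 + 4MU livers. Pooled levels were 0.0261 CPM in CCl4 (0.00066 to 0.145) and 0.286 CPM in CCl4 + 4MU (0.192 to 0.411). On the opposite strand, exons of Has3 overlap those of the protein-coding genes Chtf8 (48 counts in all) and Derpc (0 counts). The strand setting of the counting is not given, so the few reads of Has3 are uncertain. The synthases were under the mean of 10 counts required for the main test. In a fit of 31177 genes without that filter, the difference in Has3 between these groups missed the threshold (edgeR's quasi-likelihood test, adjusted p = 0.0638), as did every other comparison of Has1, Has2 and Has3.

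**Figure D1:**
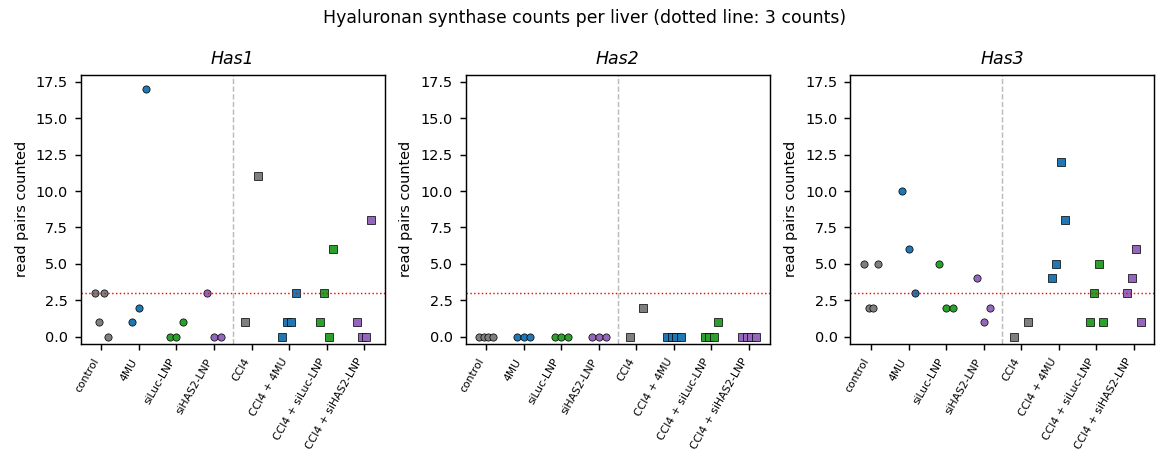
Read pairs counted for Has1, Has2 and Has3 (vertical axes) in each of the 27 livers by group (horizontal axis), circles without and squares with CCl4, with a dotted line at 3 counts. Has2 is at 0 in 25 livers, Has1 exceeds 10 counts in 2 livers, and Has3 exceeds 3 counts in all 4 CCl4 + 4MU livers.

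The other 7 members, Hyal1, Hyal2, Cemip2, Cd44, Hmmr, Stab2 and Lyve1, passed the filter. Levels of different genes were compared as CPM per kilobase of exon (RPKM). In control livers Hyal2 led with 9.999 ± 1.62 RPKM (SD, n = 4), above Stab2 (3.75 ± 0.652) and Hyal1 (3.48 ± 0.448), whose livers overlapped. Cd44 (1.29 ± 0.135), Lyve1 (0.635 ± 0.432) and Cemip2 (0.506 ± 0.103) followed, with Lyve1 overlapping both its neighbours in this order. Hmmr (0.0860 ± 0.0520), Has3 (0.0259 ± 0.0122) and Has1 (0.0188 ± 0.0153) were last among the genes with counts, and each overlapped the next. The control liver thus held far more mRNA of the hyaluronidases and of the clearance receptor than of any synthase. In the 2 CCl4 livers Hmmr (6.60 ± 3.61 RPKM) and Hyal2 (6.49 ± 0.832) were highest and overlapped, and Cd44 (3.99 ± 0.994) came next.

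The effect of CCl4 was compared within each treatment: CCl4 against control, and each CCl4 group with an agent against the group with that agent alone. These 4 comparisons share no livers. Averaged over them, Hmmr, Lyve1, Cd44 and Cemip2 rose and Stab2, Hyal1 and Hyal2 fell, so all 7 tested members passed an adjusted p of 0.05 (quasi-likelihood test of edgeR, adjusted by Benjamini-Hochberg across 14114 genes). Of all tested genes 51.7% passed in this comparison, 26.2% higher and 25.5% lower, so the count of members is to be read against a liver in which more genes changed than did not. The median log2 fold change was 0.57 (Cemip2) over the members and -0.02 over all tested genes. These 7 calls held under each of the 34 alternatives, each liver left out included. In bulk tissue, fewer cells of a type and less RNA per cell cannot be told apart.

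Hmmr had the largest change of the members. Its levels in CPM were 0.865, 0.295, 0.214 and 0.613 in control, 0.0512, 0.117 and 0.101 in 4MU, 0.801, 1.196 and 0.703 in siLuc-LNP, and 1.17, 1.56 and 1.32 in siHAS2-LNP. With CCl4 they were 23.4 and 52.9 in the CCl4 group, 10.4, 10.9, 20.4 and 3.42 in CCl4 + 4MU, 25.5, 22.0, 19.6 and 48.7 in CCl4 + siLuc-LNP, and 17.1, 16.6, 14.4 and 15.2 in CCl4 + siHAS2-LNP. All 14 CCl4 livers exceeded all 13 others, a separation shown by 3.21% of tested genes. No member had all CCl4 livers below the others, as 1.37% of tested genes did. Averaged over treatments Hmmr rose 42.7-fold (log2 fold change 5.42, standard error 0.28, adjusted p = 1.63e-13). The 4MU livers held 1 to 3 counts of Hmmr each, at the floor, so the fitted fold under 4MU, and with it the averaged fold, depends on the fit.

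Hmmr moved with the cell cycle genes. All 13 mitotic markers, Ccnb1, Ccnb2, Bub1, Tpx2 and Mki67 among them, rose in each of the 4 comparisons, and their summed level was 77.9 to 913 CPM (median 297.5) with CCl4 and 8.04 to 47.9 CPM (median 19) without. Taking each liver's deviation from its own group mean, Hmmr correlated with the 13 markers at a median Pearson's r of 0.689 (0.516 to 0.844; 27 livers, which share library depth and scaling). The closest genes by these deviations were Ect2 (r = 0.894), Knl1 (0.887) and Cip2a (0.886). By the 8 group means they were Tpx2 (0.999), Ccnb1 (0.998) and Dlgap5 (0.998). Spearman's correlation of these group means was 1 for each, at ranks 10, 93 and 70, so it did not set them apart. For the other tested members the nearest gene by group means was at 0.981 (Cd44) to 0.993 (Lyve1), so a close match over 8 points was not particular to Hmmr. Ect2 acts in cytokinesis, Knl1 is a kinetochore protein, Tpx2 and Dlgap5 are spindle proteins and Ccnb1 is cyclin B1.

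Cd44 was at 8.96, 7.67, 8.46 and 9.85 CPM in control, 3.79, 8.67 and 9.93 in 4MU, 14.4, 12.2 and 14.4 in siLuc-LNP, and 17.9, 20.0 and 17.9 in siHAS2-LNP. With CCl4 it was at 22.2 and 31.8 in the CCl4 group, 16.1, 14.8, 19.3 and 23.0 in CCl4 + 4MU, 32.4, 16.5, 15.1 and 28.1 in CCl4 + siLuc-LNP, and 13.6, 18.5, 14.7 and 14.6 in CCl4 + siHAS2-LNP. Without CCl4, every siLuc-LNP liver lay above every control liver, where 7.25% of tested genes showed no overlap in either direction. Of the 14 CCl4 livers, 5 lay above all 13 others. The averaged rise was 1.80-fold (log2 0.85, standard error 0.13, adjusted p = 7.71e-06). By treatment it was log2 1.63 (adjusted p = 6.87e-05) in CCl4 against control, 1.29 (adjusted p = 0.000895) under 4MU, 0.75 (adjusted p = 0.0331) under siLuc-LNP and -0.28 (adjusted p = 0.521) under siHAS2-LNP. The value under siLuc-LNP lost its call without any of siLuc-LNP mice 1, 2 and 3 or CCl4 + siLuc-LNP mice 1 and 4 (adjusted p 0.0603 to 0.132), and when the other groups were left out of the fit (0.115).

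Cd44 is carried by leukocytes as well as by mesenchymal cells. The 10 markers of infiltrating myeloid cells summed to 160.5 to 743 CPM with CCl4 and 54.2 to 211 without, and 8 of 10 rose. The 10 markers of stellate cells and myofibroblasts summed to 181 to 1056 CPM and 42.8 to 143 CPM, and 8 of 9 tested rose. On average over treatments 26.2% of all tested genes rose. In livers without CCl4 the myeloid sum was 94.0 to 133.5 CPM in control, 141 to 211 CPM in siLuc-LNP and 176 to 183 CPM in siHAS2-LNP, next to the Cd44 levels above. Their part in the Cd44 result was not tested. The genes that deviated most like Cd44 from their group means were Oxct1 (r = 0.884), a ketone body enzyme, Tmsb4x (0.832), an actin-binding peptide, and Ctss (0.826), a lysosomal protease of antigen-presenting cells.

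**Figure D2:**
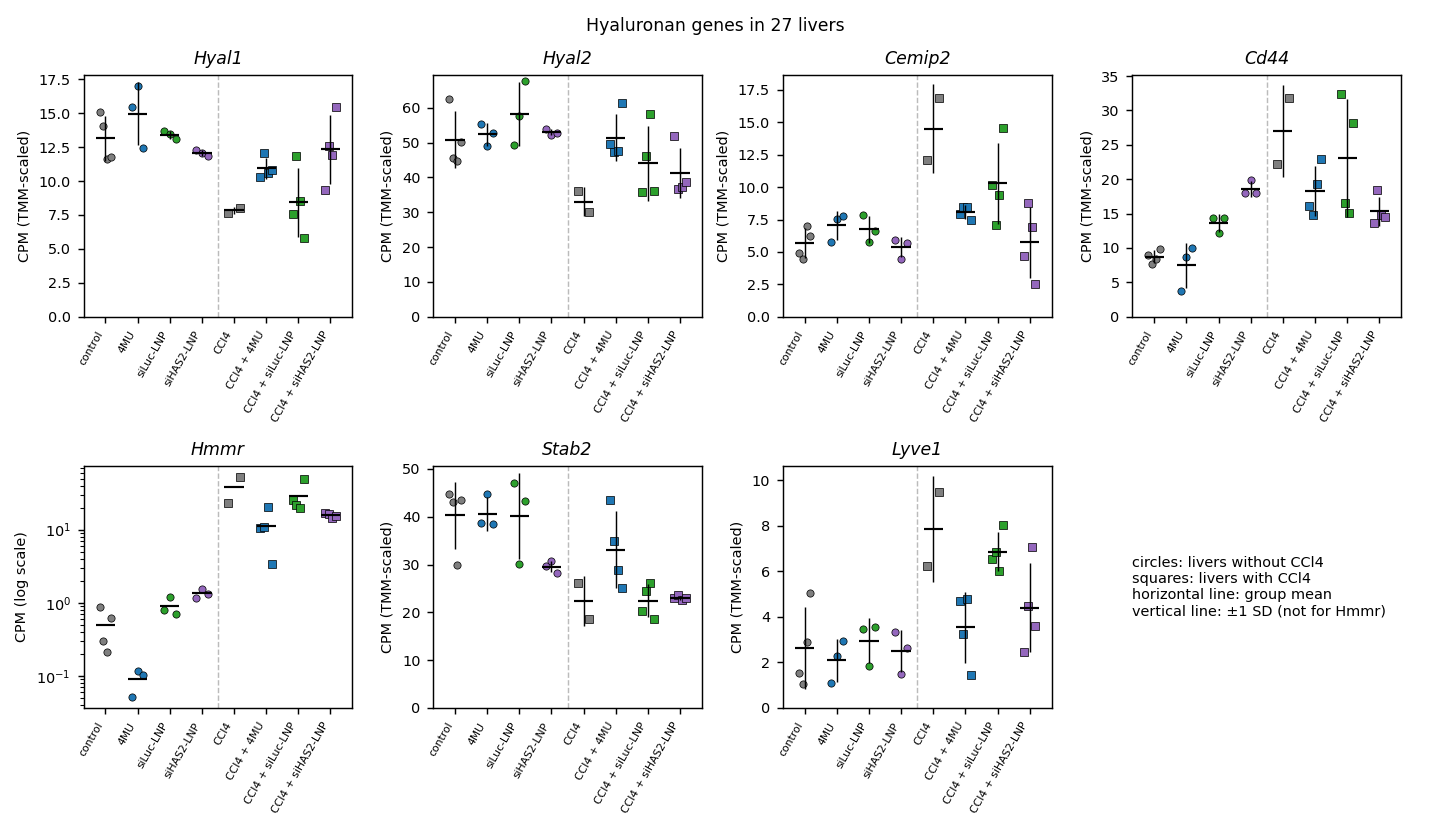
Levels of the 7 tested members (vertical axes, CPM; a log scale for Hmmr) in 27 livers by group (horizontal axes), with circles for livers without and squares for livers with CCl4, a horizontal line at the group mean and a vertical line of 1 SD each way except for Hmmr. All 14 CCl4 livers lie above the others for Hmmr, while the ranges of the other members overlap.

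The endothelial receptors Stab2 and Lyve1 moved in opposite directions. Stab2 was at 44.8, 43.1, 29.9 and 43.5 CPM in control, 38.7, 44.7 and 38.5 in 4MU, 47.1, 30.0 and 43.2 in siLuc-LNP, and 29.7, 30.8 and 28.3 in siHAS2-LNP. With CCl4 it was at 26.1 and 18.7 in the CCl4 group, 43.5, 34.9, 28.9 and 25.1 in CCl4 + 4MU, 20.4, 24.5, 26.2 and 18.7 in CCl4 + siLuc-LNP, and 23.0, 23.6, 22.6 and 23.1 in CCl4 + siHAS2-LNP. In all, 11 of the 14 CCl4 livers were below every liver without CCl4, and the other 3 were CCl4 + 4MU livers. The averaged fall was 1.502-fold (log2 -0.59, standard error 0.09, adjusted p = 1.13e-05).

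Lyve1 was at 1.53, 1.06, 2.90 and 5.07 CPM in control, 1.08, 2.304 and 2.94 in 4MU, 3.49, 1.82 and 3.56 in siLuc-LNP, and 3.35, 1.51 and 2.63 in siHAS2-LNP. With CCl4 it was at 6.23 and 9.50 in the CCl4 group, 4.69, 3.24, 4.77 and 1.46 in CCl4 + 4MU, 6.54, 6.87, 6.003 and 8.04 in CCl4 + siLuc-LNP, and 2.47, 4.49, 7.07 and 3.61 in CCl4 + siHAS2-LNP. Lyve1 lay above every liver without CCl4 in 7 of the 14 CCl4 livers, and the other CCl4 livers overlapped them. The averaged rise was 2.12-fold (log2 1.08, standard error 0.23, adjusted p = 0.00043).

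Set against each other within a liver, Lyve1 had 2.47 to 11.6 counts per 100 counts of Stab2 (median 7.41) in the 13 livers without CCl4 and 5.81 to 50.8 (median 21.0) in the 14 with it. The mean log2 ratio was 1.64 higher with CCl4 (-2.37 ± 0.896 against -4.01 ± 0.747, SD), and 10 of 14 CCl4 livers exceeded all others. This ratio was chosen after the values had been seen and is a description with no test. By treatment, it was 3.41, 2.47, 9.73 and 11.6 in control and 23.9 and 50.8 in CCl4. Under siLuc-LNP it was 7.41, 6.07 and 8.23 without CCl4 and 32.1, 28.0, 22.9 and 43.0 with it. The groups did not overlap in either pair. Under 4MU it was 2.78, 5.16 and 7.63 without and 10.8, 9.29, 16.5 and 5.81 with CCl4, and under siHAS2-LNP 11.3, 4.91 and 9.30 without and 10.7, 19.1, 31.3 and 15.6 with it, so that 1 CCl4 liver overlapped in each of these pairs.

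The fall of Stab2 was not shared by the other genes of sinusoidal endothelium. Of its 12 tested markers 6 rose, among them Flt4 (log2 0.84, adjusted p = 0.000511), Oit3 (0.83, adjusted p = 0.00345) and Gpr182 (0.65, adjusted p = 0.00156), and none fell, where 26.2% of all tested genes rose and 25.5% fell. Summed over the 13 genes found, the list was at 111 to 294 CPM with CCl4 (median 211) and 78.2 to 265 CPM without (median 169). Stab1, the paralogue of Stab2 on the same cells and on macrophages, rose (log2 0.80, standard error 0.11, adjusted p = 2.1e-06), and 13 of 14 CCl4 livers (20.0 to 39.6 CPM) exceeded all others (9.34 to 23.2 CPM). Of the 4 tested lymphatic endothelial markers, Pdpn (log2 2.06) and Reln (1.16) rose while Prox1 (0.08, adjusted p = 0.516) and Ccl21a (0.29, adjusted p = 0.68) did not pass. Pdpn and Reln are also made by mesenchymal cells of the liver, and Prox1 by hepatocytes. The part of either cell type in the Lyve1 result was not tested.

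Within groups, Lyve1 and Stab2 were set beside the sinusoidal markers. The median Pearson's r of deviations with the 12 markers was 0.625 (0.468 to 0.781) for Lyve1 and 0.248 (0.0731 to 0.428) for Stab2, over the same 27 livers, and r between Lyve1 and Stab2 was 0.143. This is a description, and the difference between these medians was not tested. The nearest genes to Lyve1 by deviations were Atp2b4 (0.841), a calcium pump, Arhgap31 (0.833) and Armcx1 (0.832). The nearest to Stab2 were Pigr (0.741), the receptor of polymeric immunoglobulins, Aqp9 (0.736), a hepatocyte channel for glycerol, and Prkd3 (0.734), a protein kinase.

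**Figure D3:**
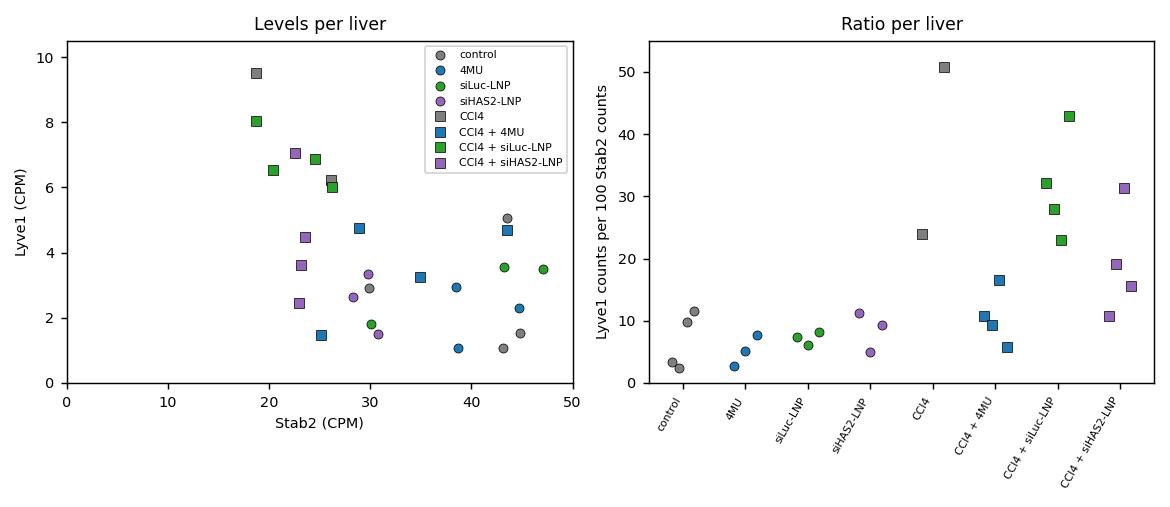
Left, Lyve1 against Stab2 (CPM, both axes) in each of 27 livers. Right, Lyve1 counts per 100 Stab2 counts by group. Circles are livers without CCl4 (2.47 to 11.6) and squares livers with it (5.81 to 50.8), and colours mark the agent.

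The hyaluronidases fell. Hyal2, the membrane-anchored enzyme that makes the initial cuts in long hyaluronan, was at 62.7, 45.6, 44.8 and 50.3 CPM in control, 55.4, 49.0 and 52.7 in 4MU, 49.4, 57.7 and 67.6 in siLuc-LNP, and 54.0, 52.2 and 52.8 in siHAS2-LNP. With CCl4 it was at 36.0 and 30.0 in the CCl4 group, 49.5, 47.4, 47.5 and 61.3 in CCl4 + 4MU, 35.7, 46.1, 58.4 and 36.0 in CCl4 + siLuc-LNP, and 51.9, 36.8, 37.4 and 38.6 in CCl4 + siHAS2-LNP. It was below all livers without CCl4 in 7 of 14 CCl4 livers and in none of the CCl4 + 4MU livers. Its nearest genes by deviations were Pnpla2 (r = 0.920), a triglyceride lipase, Tmem115 (0.907) and Rbck1 (0.901). The averaged fall was 1.28-fold (log2 -0.35, standard error 0.09, adjusted p = 0.00149). Mean Hyal2 was 50.9 CPM in control, 33.0 in CCl4 and 51.4 in CCl4 + 4MU. With plain library totals these means were 46.9, 40.1 and 49.9 CPM, so the size of these differences depended on the scaling.

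Hyal1, the lysosomal enzyme that cuts the fragments further, was at 15.1, 14.1, 11.7 and 11.8 CPM in control, 15.5, 17.0 and 12.5 in 4MU, 13.7, 13.4 and 13.1 in siLuc-LNP, and 12.3, 12.1 and 11.8 in siHAS2-LNP. With CCl4 it was at 7.64 and 8.03 in the CCl4 group, 10.3, 12.1, 10.6 and 10.8 in CCl4 + 4MU, 7.56, 11.8, 8.53 and 5.82 in CCl4 + siLuc-LNP, and 9.36, 12.6, 11.9 and 15.5 in CCl4 + siHAS2-LNP. Of 14 CCl4 livers 9 were below all others, and only 1 of those 9 was a CCl4 + siHAS2-LNP liver. The averaged fall was 1.38-fold (log2 -0.46, standard error 0.09, adjusted p = 0.000224). The hepatocyte markers that fell are named above. Cps1 of the same list was higher with CCl4 (median 5092 against 2517 CPM), with 10 of 14 CCl4 livers above all others. The part of hepatocytes in the falls of Hyal1 and Hyal2 was not tested. Hyal1 shares exons on the same strand with Naa80 (13707 counts in all, against 6768 for Hyal1) and with Hyal3 (287), so its reads are uncertain. Its nearest genes by deviations were Nxpe2 (r = 0.780), Slco2b1 (0.737), an organic anion transporter, and Tmem184a (0.731). Spearman's correlations of Hyal1 with these 3 were lower, at 0.44 (rank 317), 0.422 (rank 381) and 0.532 (rank 74).

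Cemip2 was at 4.94, 4.49, 7.004 and 6.22 CPM in control, 5.79, 7.54 and 7.80 in 4MU, 7.84, 5.75 and 6.64 in siLuc-LNP, and 5.94, 4.48 and 5.68 in siHAS2-LNP. With CCl4 it was at 12.1 and 16.9 in the CCl4 group, 7.92, 8.48, 8.50 and 7.44 in CCl4 + 4MU, 10.2, 7.06, 9.43 and 14.6 in CCl4 + siLuc-LNP, and 4.66, 8.79, 6.94 and 2.54 in CCl4 + siHAS2-LNP. The lowest value of all 27 livers was thus that of CCl4 + siHAS2-LNP mouse 4, from 19 counts in the shallowest library. Cemip2 was above all livers without CCl4 in 9 of 14 CCl4 livers and rose 1.49-fold on average (log2 0.57, standard error 0.14, adjusted p = 0.00119). Its relative Cemip, a secreted hyaluronan-depolymerising protein, was near the floor, with 46 counts in the 14 CCl4 livers (0.151 CPM, 0.110 to 0.201) and 6 in the 13 others (0.0211 CPM, 0.00774 to 0.0459). CCl4 + siLuc-LNP mouse 4 gave 15 of the 46. The nearest genes to Cemip2 by deviations were Asb4 (r = 0.844), Armcx4 (0.844) and Procr (0.841), the endothelial protein C receptor. In the fit without the filter the averaged CCl4 effect on Cemip passed (edgeR adjusted p = 0.000653).

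By treatment, the members differed in how many of the 4 comparisons called them. In CCl4 against control, where 33.9% of genes passed (18% higher and 15.9% lower), all 7 did, with log2 fold changes of 6.25 for Hmmr, 1.55 for Lyve1, 1.35 for Cemip2, -0.85 for Stab2, -0.74 for Hyal1 and -0.62 for Hyal2 beside that of Cd44. Without CCl4 mouse 2 the calls of Hmmr, Cd44 and Cemip2 remained (adjusted p = 2.58e-07, 0.00844 and 0.0431), and those of Lyve1 (0.181), Stab2 (0.131), Hyal2 (0.223) and Hyal1 (0.0705) were lost. Hyal1 also lost its call without CCl4 mouse 1 (0.0622) and Hyal2 without control mouse 1 (0.0507). Under 4MU, where 23.6% of genes passed (13.1% higher), Cd44 and Hmmr (log2 6.85, adjusted p = 2.63e-07) did. Under siLuc-LNP, with 24.1% (13% higher and 11.1% lower), Cd44, Hmmr (5.02, adjusted p = 2.71e-07), Stab2 (-0.84, adjusted p = 0.00121) and Hyal1 (-0.67, adjusted p = 0.00841) did, although the call of Hyal1 was lost when the other groups were left out of the fit (0.105). Under siHAS2-LNP, with 12.7% (7.7% higher), Hmmr did (3.55, adjusted p = 2.66e-05).

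Hmmr was therefore the member called in every comparison with CCl4. A call in one treatment and its lack in another does not show a difference, so the interactions were tested. For 4MU, siLuc-LNP and Has2 siRNA (siHAS2-LNP against siLuc-LNP) none of the 7 members passed, where 5.65%, 0.00709% and 0.0354% of all genes did. At an unadjusted p under 0.05 there were 2, 1 and 3 members, and DESeq2 called 1, 0 and 0. The lowest adjusted p were 0.0747 for Cemip2 with 4MU (log2 difference -1.16, standard error 0.39), 0.444 for Cd44 with siLuc-LNP (-0.87, standard error 0.38) and 0.261 for Cd44 with Has2 siRNA (-1.03, standard error 0.36). The 95% intervals of the last 2, taken from the standard errors, ran from -1.61 to -0.13 and from -1.73 to -0.33.

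The interaction of siHAS2-LNP against no agent, which compares the CCl4 effect under siHAS2-LNP with that in untreated livers, was added after the data had been seen. Here 2 of the 7 members passed, both lower, where 6.36% of all genes did (3.07% lower). The CCl4 effect on Cd44 was smaller under siHAS2-LNP by a log2 difference of -1.90 (standard error 0.375, 95% interval -2.64 to -1.17, edgeR adjusted p = 0.00652), and that on Hmmr by -2.69 (standard error 0.715, -4.09 to -1.29, adjusted p = 0.0272). DESeq2 also called Cemip2 (log2 difference in edgeR -1.22, adjusted p = 0.0675 in edgeR and 0.032 in DESeq2), as did edgeR without the low-count filter (0.033). Hyal1 (0.76, adjusted p = 0.1), Stab2 (0.49, 0.297), Hyal2 (0.26, 0.59) and Lyve1 (-0.72, 0.561) did not pass. Both calls rested on CCl4 mouse 2, without which Cd44 was at -1.66 (adjusted p = 0.0825) and Hmmr at -2.02 (adjusted p = 0.194). Hmmr also missed the threshold without control mouse 2 or 3 or siHAS2-LNP mouse 2 or 3 (adjusted p 0.0508 to 0.0685), without the low-count filter (0.0746) and with the replicate block (0.0523). The carrier was given under siHAS2-LNP and not in the untreated livers, so that carrier and siRNA cannot be told apart in this interaction, which shares the CCl4 and control livers with the other comparisons.

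**Figure D4:**
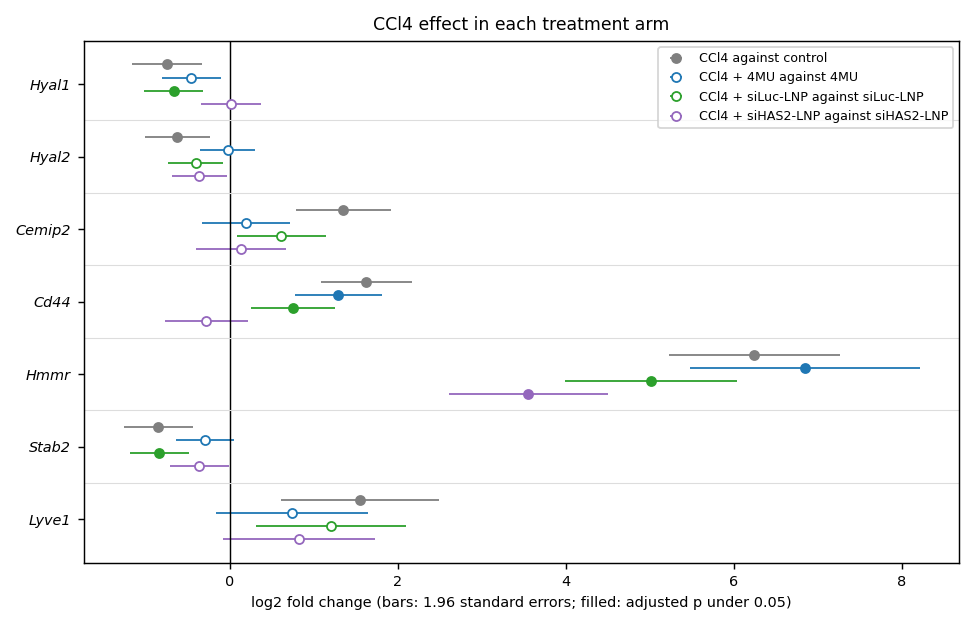
Log2 fold change with CCl4 (horizontal axis, bars of the 95% interval) of each tested member (vertical axis) in untreated livers and under 4MU, siLuc-LNP and siHAS2-LNP, filled where the adjusted p is under 0.05. Hmmr is filled in all 4 comparisons, from 3.55 to 6.85, and Cd44 lies at -0.28 under siHAS2-LNP.

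The effect of the agents in fibrotic livers was asked next. The comparisons of the 3 groups given both CCl4 and an agent with the CCl4 group share the same 2 CCl4 livers. With 4MU, Hmmr fell 3.39-fold (log2 -1.76, standard error 0.42, adjusted p = 0.00665), Cemip2 fell 1.80-fold (-0.84, standard error 0.29, adjusted p = 0.0427) and Hyal2 rose 1.56-fold (log2 0.64, standard error 0.20, adjusted p = 0.0255), in a comparison with 18.1% of genes called (8.14% higher and 9.95% lower). The livers of the groups did not overlap for 5 of the 7 members, these 3 with Hyal1 and Lyve1, as was the case for 44.4% of tested genes. Lyve1 (log2 -1.16, adjusted p = 0.09), Stab2 (0.56, adjusted p = 0.0598), Hyal1 (0.48, adjusted p = 0.11) and Cd44 (-0.56, adjusted p = 0.155) did not pass.

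With siHAS2-LNP, Cemip2 fell 2.46-fold (log2 -1.30, standard error 0.29, adjusted p = 0.00518), Hmmr 2.41-fold (-1.27, standard error 0.42, adjusted p = 0.0455) and Cd44 1.76-fold (-0.82, standard error 0.28, adjusted p = 0.0491), and Hyal1 rose 1.56-fold (log2 0.64, standard error 0.21, adjusted p = 0.0447), where 14.3% of genes were called (7.01% higher and 7.28% lower). Stab2 differed by 0.04 (95% interval -0.36 to 0.45). Cell markers moved beside these genes: 5 of 7 Kupffer cell markers fell, their sum being 263.5 and 284.7 CPM in the CCl4 livers and 97.8 to 136 CPM in CCl4 + siHAS2-LNP, as did 5 of 9 markers of stellate cells and myofibroblasts (567 and 952 against 219 to 366 CPM). Without CCl4 mouse 2, 2 and 0 of them fell. Their part in the Cd44 and Cemip2 results was not tested. With siLuc-LNP none of the members passed, of 0.262% of genes called, while 1 had an unadjusted p under 0.05 (Hyal2, log2 0.41, adjusted p = 0.341) and DESeq2 called 0.

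These calls rested on CCl4 mouse 2. Without it none of the members passed for 4MU (Hmmr -1.09, adjusted p = 0.247; Cemip2 -0.61, 0.388; Hyal2 0.49, 0.304) or for siHAS2-LNP (Cemip2 -1.06, 0.147; Hmmr -0.59, 0.611; Cd44 -0.56, 0.459; Hyal1 0.65, 0.251), with the remaining CCl4 liver assumed to vary like the other groups. Under 4MU, Cemip2 also lost its call without any 1 of the 4 CCl4 + 4MU livers and Hyal2 without CCl4 + 4MU mouse 4. Under siHAS2-LNP, Hmmr lost it without any 1 of the 4 CCl4 + siHAS2-LNP livers, Cd44 without mouse 1, 3 or 4 of that group, and Hyal1 without its mouse 2, 3 or 4 or CCl4 mouse 1. Hyal1 also missed the threshold with the size factors of DESeq2 in edgeR (adjusted p = 0.0533), limma-voom (0.083), no filter (0.114), filterByExpr (0.0635) and only the compared groups (0.1). The mitotic markers moved beside Hmmr: 12 of 13 fell with 4MU and 8 of 13 with siHAS2-LNP, and none did without CCl4 mouse 2. Their sum was 471 and 913 CPM in the CCl4 livers, 77.9 to 334 in CCl4 + 4MU and 263 to 309 in CCl4 + siHAS2-LNP. Their part in the Hmmr result was not tested.

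**Figure D5:**
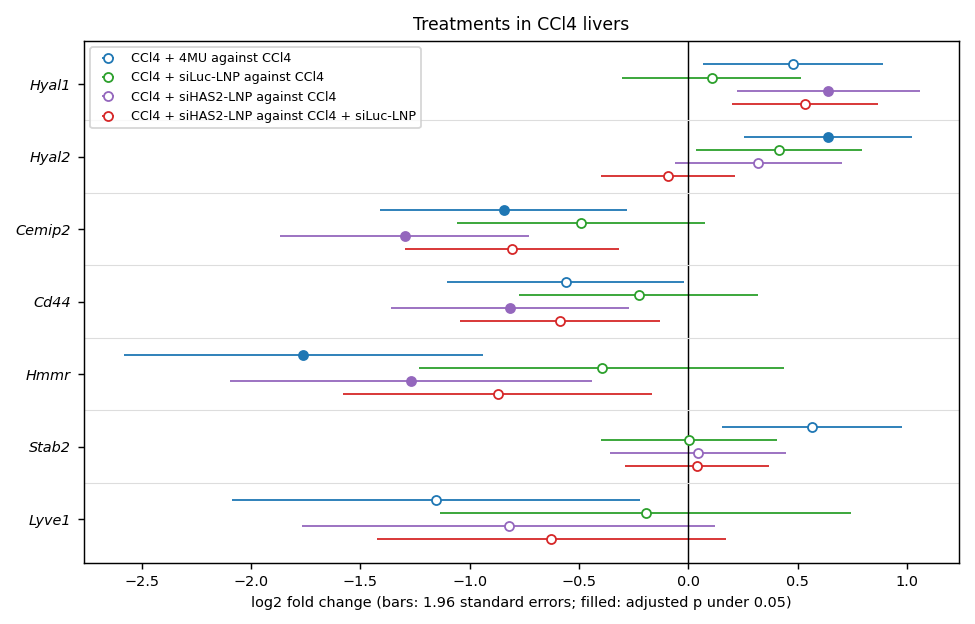
Log2 fold change (horizontal axis, bars of the 95% interval) of each tested member (vertical axis) between CCl4 groups, filled where the adjusted p is under 0.05. The 3 comparisons against the CCl4 group share its 2 livers, and none of the members is filled for siHAS2-LNP against siLuc-LNP.

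The targeting of Has2 itself is read from CCl4 + siHAS2-LNP against CCl4 + siLuc-LNP, which share the route and the carrier. No member passed, where 1.08% of genes were called. At an unadjusted p under 0.05 there were 4, and DESeq2 called 1. The 4 were Cemip2 (log2 -0.81, 95% interval -1.29 to -0.32, adjusted p = 0.102), Hyal1 (0.53, 0.20 to 0.87, adjusted p = 0.114), Cd44 (-0.59, -1.05 to -0.13, adjusted p = 0.198) and Hmmr (-0.87, -1.58 to -0.17, adjusted p = 0.219). All 4 CCl4 + siHAS2-LNP livers were below all 4 CCl4 + siLuc-LNP livers for Hmmr, a lack of overlap in either direction shown by 7.67% of tested genes, whereas the groups overlapped for the other 3. For Stab2 the interval was narrow about 0 (0.04, -0.29 to 0.37), and for Lyve1 wide (-0.63, -1.42 to 0.17). Of the cell lists in this comparison, 1 marker of 4 fell in the lymphatic list and none passed in the sinusoidal, Kupffer, myeloid, stellate and mitotic lists.

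In livers without CCl4, none of the members passed for 4MU, siLuc-LNP or Has2 siRNA, with 0.00709%, 0.205% and 0.0638% of genes called. Each comparison had 1 member at an unadjusted p under 0.05, and DESeq2 called 0 in each. With 4MU this was Hmmr, which was lower in all 3 livers than in all 4 controls (adjusted p = 0.594), where 7.75% of tested genes did not overlap in either direction. With siLuc-LNP it was Cd44, which was higher in all 3 livers than in all 4 controls (log2 0.64, standard error 0.26, adjusted p = 0.6), where 7.25% did not. With Has2 siRNA it was Stab2 (log2 -0.44, standard error 0.19, adjusted p = 0.496), and here siLuc-LNP mouse 2 (30.0 CPM) lay within the siHAS2-LNP range of 28.3 to 30.8 CPM.

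Other genes of hyaluronan metabolism gave the setting, from lists drawn up with earlier results of these data known. Of 8 genes for UDP-sugar supply and Has2 regulation 5 were tested, and in the averaged CCl4 effect Pgm3, which makes N-acetylglucosamine-1-phosphate, rose (log2 1.81, standard error 0.10, adjusted p = 2.28e-13) and Ugp2, which makes UDP-glucose, fell (fell by 0.38, adjusted p = 0.00587). Pgm3 was at 16.7 to 64.6 CPM in the 14 CCl4 livers and 5.15 to 10.2 CPM in the 13 others, without overlap. Uap1, Gfpt1 and Ugdh did not pass, in a comparison where 26.2% of all tested genes rose and 25.5% fell. By treatment, Ugp2 was at log2 0.11 (adjusted p = 0.752) in CCl4 against control and fell by 1.01 (adjusted p = 0.00119) under 4MU. In CCl4 against control Pgm3 (2.62, adjusted p = 2.14e-09), Gfpt1 (0.89, adjusted p = 0.0299) and Uap1 (0.68, adjusted p = 0.0103) rose and none of the 5 fell, and without CCl4 mouse 2 Pgm3 alone kept its call. The median of the list was 0.26, against -0.02 for all tested genes. In the CCl4 livers 4 of these 5 genes fell with 4MU, as did 9.95% of all tested genes: Pgm3 (fell by 1.60, adjusted p = 0.000179), Gfpt1 (fell by 0.96, adjusted p = 0.0326), Ugp2 (fell by 0.71, adjusted p = 0.0396) and Uap1 (fell by 0.71, adjusted p = 0.0164). With siHAS2-LNP 2 fell (Pgm3 by 1.51 and Uap1 by 0.68) and with siLuc-LNP 1 (Pgm3 fell by 1.02, adjusted p = 0.0313). Over all tested genes 7.28% fell with siHAS2-LNP, and 0.262% passed in either direction with siLuc-LNP. Without CCl4 mouse 2 Pgm3 alone kept its call for 4MU (adjusted p = 0.0135) and for siHAS2-LNP (adjusted p = 0.0123), and none of the 5 passed for siLuc-LNP.

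Of 9 other genes for breakdown 4 were tested, and Gusb, the lysosomal beta-glucuronidase, rose with CCl4 (log2 0.98, standard error 0.09, adjusted p = 8.39e-10) with all 14 CCl4 livers (30.3 to 58.9 CPM) above all others (15.8 to 29.1 CPM). Hexa, a subunit of lysosomal hexosaminidase, rose slightly (0.24, adjusted p = 0.0133), while Hyal3 did not pass. Gusb and Hexa, which take part in removing the end sugars, thus rose on average over treatments while Hyal1 and Hyal2 fell. Of the 4 other receptors, Tlr4 rose beside Stab1 (0.58, adjusted p = 0.00878), and Tlr2 and Layn did not pass. Without CCl4 mouse 2 Tlr4 lost its call (0.42, adjusted p = 0.0734) and Stab1 kept it. None of the breakdown or receptor genes passed between the CCl4 groups with 4MU, siLuc-LNP or siHAS2-LNP and the CCl4 group.

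Of 18 proteins that bind hyaluronan in the matrix or carry it 11 were tested, and 5 rose and 2 fell with CCl4. In that averaged comparison 26.2% of all tested genes rose and 25.5% fell. Hapln1, a link protein that ties proteoglycans to hyaluronan, rose (log2 4.61, standard error 0.58, adjusted p = 9.62e-07), as did the hyaluronan-binding proteoglycan Vcan (3.41, standard error 0.45, adjusted p = 8.11e-07) and the inter-alpha-trypsin inhibitor heavy chain Itih5 (2.64, standard error 0.12, adjusted p = 5.69e-15). Hapln1 and Vcan had 2 libraries each at 0 without CCl4, so their folds depend on the fit. Itih5 was at 23.5 to 53.5 CPM with and 3.95 to 7.79 CPM without CCl4. Itih1 fell (fell by 0.60, adjusted p = 5.48e-07) together with Ambp (fell by 0.25, adjusted p = 0.0367), the precursor of the light chain bikunin, and both are made by hepatocytes. Itih2 of the same list went the other way, with a median of 1557 CPM with CCl4 against 1282 CPM without. In 10 of the CCl4 livers Itih2 lay above all livers without CCl4. Without CCl4 mouse 2 Itih1 kept its call and Ambp lost it (adjusted p = 0.109). The part of hepatocytes in these falls was not tested. With 4MU in CCl4 livers Ambp (log2 1.02), Itih3 (1.25), Itih4 (0.76), Habp2 (0.73) and Itih1 (0.68) rose and Vcan fell (fell by 2.42, adjusted p = 0.0154). The hepatocyte markers moved beside them, 3 of 8 rising with 4MU, where 8.14% of all tested genes rose and 9.95% fell. For 4MU none of the matrix binders passed without CCl4 mouse 2, and the part of hepatocytes in the result was not tested.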

How the data were processed

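The authors deposited unnormalised read-pair counts for each gene in 27 livers. Per the paper's methods and the submitters' processing notes, the authors trimmed reads with Trimmomatic 0.39, aligned them to GRCm39 with HISAT2, and counted them with featureCounts without multi-mapping reads. The strand setting of the counting is not given in the sources used here, so reads of overlapping antisense genes may be shared.

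Symbols, positions and exon lengths came from the GENCODE annotation of GRCm39, which matched 54749 of 55414 identifiers. The siRNA strands were read from the study's sequence list and located in GENCODE transcripts. The software was Python 3.11.15 and R 4.3.3, with limma 3.58.1, DESeq2 1.42.0 and edgeR 4.0.16. The 14114 genes averaging 10 counts or more entered an edgeR quasi-likelihood fit of all 8 groups with TMM scaling and Benjamini-Hochberg adjustment over all of them at 0.05. CPM used TMM-scaled totals, and RPKM divided them by the exon union length. The fit was tested on simulated data. No same-group libraries agreed within counting noise, and the labels name no batch.

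The members and the lists were chosen with earlier results of these data known. Named are all members, the genes of the hyaluronan and cell lists with the largest called changes (up to 3 a direction and list) or that a sentence on the list needs, and the 3 genes nearest in pattern to each member. Not every gene of the lists is reported by name here. Alternatives were DESeq2, limma-voom, other size factors, other filters, the replicate block, only the compared groups, and each liver left out. Leaving out CCl4 mouse 2 together with CCl4 + siLuc-LNP mouse 4, the ratio of Lyve1 to Stab2, and the interaction of siHAS2-LNP against no agent with CCl4 were added after seeing the data.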

Additional observations from a re-analysis of the deposited data

Results flagged for a closer look

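Within the groups of 4 livers, 28 sets of member values were tested for a sample far from the others (Dixon's ratio at 95%, for which chance alone gives about 5% of sets), and 3 were past the critical value. Hyal2 was at 61.3 CPM in CCl4 + 4MU mouse 4, while the other 3 livers of that group lay between 47.4 and 49.5 CPM. This liver also had the lowest Hmmr (3.42 CPM) and Lyve1 (1.46 CPM) of its group. Hyal2 was at 51.9 CPM in CCl4 + siHAS2-LNP mouse 1, where the other 3 lay between 36.8 and 38.6 CPM. Stab2 was at 29.9 CPM in control mouse 3, where the other 3 lay between 43.1 and 44.8 CPM, so that this control liver was at the level of the siHAS2-LNP livers without CCl4 (28.3 to 30.8 CPM).

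The effect of CCl4 on 2 members differed between siHAS2-LNP and untreated livers by the test of the difference itself, which was added after the data had been seen. The log2 difference was -1.90 for Cd44 (edgeR adjusted p = 0.00652) and -2.69 for Hmmr (adjusted p = 0.0272). In livers without CCl4 both were higher in siHAS2-LNP than in control (means 18.6 against 8.74 CPM and 1.35 against 0.497 CPM). Without CCl4 mouse 2 neither passed (adjusted p = 0.0825 and 0.194).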

How the results depend on the processing

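Of the members' fold changes under the alternatives, apart from the added interaction, 937 kept their direction and side of the threshold, 61 lost the call, 19 gained one and 8 changed sign. The averaged CCl4 effect called 7 members throughout. With plain library totals in place of TMM-scaled ones, 8 group means of the tested members moved by at least their SD and 48 did not. Leaving out 1 liver at a time gave 3 to 7 called members for CCl4 against control, 3 to 5 under siLuc-LNP, 0 to 4 for 4MU in CCl4 livers, 0 to 3 for siHAS2-LNP in CCl4 livers and 0 to 1 for Has2 siRNA in CCl4 livers. Leaving out CCl4 mouse 2 and CCl4 + siLuc-LNP mouse 4 together, chosen after seeing the data, gave 4 members for CCl4 against control and 0 for both 4MU and siHAS2-LNP in CCl4 livers, with fewer samples by construction. The interaction of siHAS2-LNP against no agent, added after seeing the data, had 2 called members, 0 to 3 without 1 liver, 0 without both of those livers, 1 with the replicate block and 3 with DESeq2. The limma-voom fit gave 2 members for CCl4 under siHAS2-LNP, 1 for siHAS2-LNP in CCl4 livers, 6 under siLuc-LNP (Lyve1 and Hyal2 gained) and 3 under 4MU (Hyal1 gained). Without the low-count filter siHAS2-LNP in CCl4 livers gave 1 and Has2 siRNA in CCl4 livers was 1. DESeq2 gave 1 for Has2 siRNA in CCl4 livers and 1 for the 4MU interaction (Cemip2 in both). Fitting only the compared groups lost Cd44 (adjusted p = 0.115) and Hyal1 (0.105) under siLuc-LNP and gained Lyve1 (0.0216), gave 2 for CCl4 under siHAS2-LNP and 1 for the 4MU interaction, and Hmmr then missed the threshold for 4MU in CCl4 livers (adjusted p = 0.109). The cause of these changes was not tested.

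The signs that changed belonged to uncalled values near 0. Hyal2 under 4MU went from -0.03 to between -0.12 and 0.0224 without 1 liver. Hyal1 under siHAS2-LNP went from 0.02 to -0.0068 with DESeq2, -0.016 without the filter, -0.011 with filterByExpr, -0.0040 with only the compared groups, and between -0.0895 and 0.13 without 1 liver. Cemip2 under siHAS2-LNP went from 0.14 to between -0.13 and 0.35 without 1 liver.

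Livers with the same number did not deviate together (mean r from -0.0291 to -0.00349, against 0.00516 for different numbers), so the numbers do not pair them. With the replicate block 3 members were called under siLuc-LNP (Cd44 lost, adjusted p = 0.0722), 3 for 4MU in CCl4 livers (Stab2 gained, 0.0452; Cemip2 lost, 0.0538) and 3 for siHAS2-LNP in CCl4 livers (Hmmr lost, 0.0828). Depth limits the synthases, for which 3 counts were worth 0.102 to 0.426 CPM. With the longest transcript in place of the exon union, Stab2 and Hyal1, and Lyve1 and Cemip2, changed places in the control order. The nearest genes depended on the measure of correlation. Of the sets of 3 nearest genes by Pearson's r, 11 did not share most of their genes with the 3 nearest by Spearman's correlation, and 3 did. Those 3 were the sets of Hmmr and Lyve1 by deviations and of Hyal1 by group means.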
